A study of Mus musculus with 16 samples.

Results

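The genes described here are 10 heat shock genes of the mouse left ventricle, chosen by name from the 55492 genes of the deposited table. Of these, 5 encode stress-inducible chaperones or co-chaperones (*Hspa1a*, *Hspa1b*, *Hsp90aa1*, *Hsph1* and *Dnajb1*) and 5 encode small heat shock proteins (*Hspb1*, *Hspb6*, *Hspb7*, *Hspb8* and *Cryab*). All 10 were found, and all 10 passed the filter on low values, a mean of at least 10 normalized counts over the 16 libraries. RNA was sequenced from left ventricles of male C57BL/6 mice aged 8 to 12 weeks. Hearts were taken without surgery (baseline, 2 per genotype), or 3 days after sham surgery or permanent ligation of the left anterior descending coronary artery to cause a myocardial infarct (MI), with 3 hearts per genotype in each of the latter groups. PKM2fl/fl mice carry the *Pkm2*-specific exon of *Pkm* between loxP sites and served as controls. In PKM2-/- mice that exon had been deleted in the germline with a CMV-Cre transgene that was afterwards bred out, so that PKM2 is missing from every tissue and not from cardiomyocytes alone. The labels call the hearts of a group biological replicates, and p-values therefore measure the spread between hearts.

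Heat shock proteins are molecular chaperones that bind unfolded proteins and keep them from aggregating. In stressed cells, heat shock factor 1 binds heat shock elements in the promoters of the inducible members and switches them on together. Chaperones of the HSP70 family (*Hspa1a*, *Hspa1b*) bind exposed stretches of a client in a cycle driven by ATP. Their J-domain partner (*Dnajb1*) stimulates the ATPase, and HSP110 (*Hsph1*) exchanges the nucleotide. The inducible HSP90 isoform (*Hsp90aa1*) acts later, on kinases, receptors and other clients. Small heat shock proteins need no ATP and hold unfolded clients, and in heart muscle many of those clients are sarcomeric and cytoskeletal. *Cryab* (αB-crystallin), *Hspb6*, *Hspb7* and *Hspb8* are abundant in striated muscle, where *Hspb8* works with the co-chaperone *Bag3* to hand damaged proteins to autophagy, whereas *Hspb1* is found in many cell types.

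The promoters are shown first, since the inducible members are known to share a regulator that reads them. In RefSeq promoter windows (GRCm38.p6), 8 of the 10 genes had an entry, with 11 windows in all. The 250 bases before each start were searched on both strands for paired inverted heat shock units, GAANNTTC or TTCNNGAA. In the whole table such a pair was present in 14.5% of 27025 genes and in 12.8% of 32851 windows. It was present in 5 of the 8 members, *Hspa1a*, *Hspa1b*, *Hsph1*, *Hspb1* and *Hspb6*, and these letters were not found in the windows of *Dnajb1*, *Hspb7* and *Hspb8*. A run of 3 inverted units (GAANNTTCNNGAA or its complement, which contains the pair) was present in 0.514% of genes and in 0 of the members. Each stretch reads 5′ to 3′ along the gene, with the pairs in capitals. The first 3 cover the 80 bases from 140 to 61 before the start, and the *Hsph1* stretch covers the 30 bases from 44 to 15 before its first start.
*Hspa1a*, chr17:34972217-34972296, minus strand: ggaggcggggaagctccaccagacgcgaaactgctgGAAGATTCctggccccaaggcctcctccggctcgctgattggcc
*Hspa1b*, chr17:34959299-34959378, minus strand: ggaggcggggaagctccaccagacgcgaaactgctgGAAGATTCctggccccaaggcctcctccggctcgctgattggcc
*Hspb1*, chr5:135887779-135887858, plus strand: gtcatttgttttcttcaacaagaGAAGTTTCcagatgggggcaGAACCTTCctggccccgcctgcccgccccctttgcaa
*Hsph1*, chr5:149636351-149636380, minus strand: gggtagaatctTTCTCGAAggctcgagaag

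*Hspa1a* and *Hspa1b* had the same 80 bases, and their 250-base windows were identical at 247 positions. The pair begins 104 bases before the start in both. In *Hspb1* there were 2 pairs, beginning 117 and 97 bases before the start, and the only pair of *Hspb6* lay in the window of its second start, inside the gene. The pair and the printed stretch of *Hsph1* also lie inside its annotated span. A match of letters is a description of the window and not a measured binding site.

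*Hspa1a* (chr17:34969359-34972156) and *Hspa1b* (chr17:34956429-34959238) are neighbouring copies of the inducible HSP70 gene, and their values are uncertain for 2 measured reasons. Their transcripts of 2967 and 2803 bases were 99.2% identical over 2201 aligned bases, and 52.7% of all 75-base stretches of *Hspa1a* also occurred in *Hspa1b*, so that reads could be assigned to either copy. How such reads were counted is not given in the sources used here. All 564 exonic bases of the antisense gene *Gm20481* also lie within exons of *Hspa1a*, and the library kit does not mark strand, so that reads from these bases, 19.0% of the exonic bases of *Hspa1a*, cannot be assigned to either gene. In the same way, 757 exonic bases on chromosome 9 are shared by *Cryab* and *Hspb2*, which lie on opposite strands. They are 17.2% of the exonic bases of *Cryab* and 62.1% of those of *Hspb2*. In GRCm38.p6 the other inducible genes lie at chr12:110691036-110696395 (*Hsp90aa1*), chr5:149616843-149636498 (*Hsph1*) and chr8:83608175-83612653 (*Dnajb1*). The small heat shock genes lie at chr5:135887919-135889563 (*Hspb1*), chr7:30552535-30555443 (*Hspb6*), chr4:141420779-141425310 (*Hspb7*), chr5:116408491-116422864 (*Hspb8*) and chr9:50745951-50756636 (*Cryab*). The values below are sums over whole genes and do not tell exons or isoforms apart.

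The 16 libraries held 20623769 to 71855101 reads, and the values below are normalized counts, the read count divided by the DESeq2 size factor of the library. All 13 cardiomyocyte markers examined were above 0 in every library, and Y-linked *Ddx3y* was above *Xist* in 16 of 16, as in male hearts. *Pkm* counts both isoforms together and so does not check the deletion. It had 9602 and 9108 normalized counts in PKM2fl/fl and 11981 and 12984 in PKM2-/- baseline hearts. The rRNA-related locus CT010467.1 took up 0.111 to 1.39% of reads in the PKM2fl/fl baseline and sham libraries, and 1.72 to 25.1% in all others.

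Without surgery, the small heat shock genes were far more abundant per kilobase of transcript than the inducible chaperones, with *Hspb7* at the top. Per kilobase of the canonical GENCODE transcript, PKM2fl/fl baseline hearts had a mean of 9252 normalized counts for *Hspb7*, 6372 for *Cryab*, 3570 for *Hspb6*, 2404 for *Hspb8* and 1899 for *Hspb1*. Of the inducible genes, *Hsp90aa1* had 491 normalized counts per kilobase, *Hsph1* had 121 and *Dnajb1* had 61.1, and all 5 small heat shock genes were above every inducible gene in both hearts. At the bottom, *Hspa1b* had 7.34 and *Hspa1a* had 6.83 normalized counts per kilobase, and only these neighbours in the order overlapped between hearts. The order depends on the lengths used, such as 1690 bases for *Cryab*, whose exons together hold 4400, and 3044 for *Hspb6*. Before division by length, the means were 10769 for *Cryab* and 10868 for *Hspb6*, and 1739 for *Hspb1* and 1732 for *Hsp90aa1*. The values of *Hspa1a* rested on only 12 to 165 reads per library and those of *Hspa1b* on 23 to 214.

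**Figure D1:**
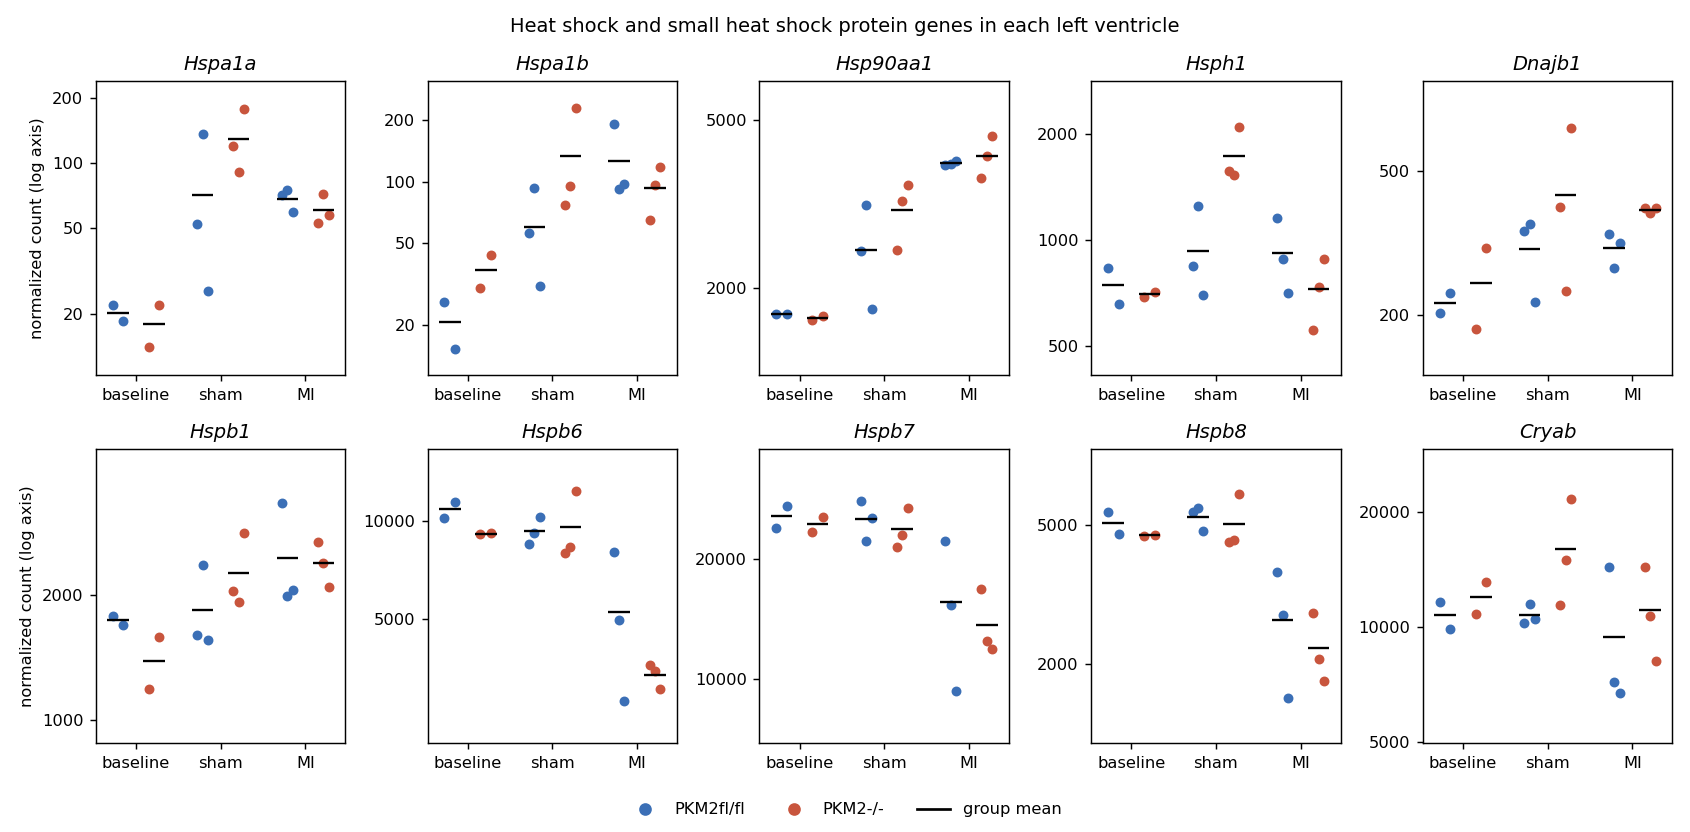
Normalized counts (log axis) of the 10 genes in each of the 16 left ventricles, by treatment (horizontal) and genotype (colour), with 1 point per heart and a line at the mean of each group. The MI hearts lie below the sham hearts of their genotype for Hspb6, Hspb7 and Hspb8, and above them for Hsp90aa1.

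MI was compared with sham surgery to ask how the heat shock genes of control hearts differ 3 days after ligation. In PKM2fl/fl hearts *Hspb6*, *Hspb7* and *Hspb8* fell and *Hsp90aa1* rose, while the other 6 members did not pass the test. In bulk tissue, fewer cells of a type and less RNA per cell cannot be told apart. All tests below are limma's, fitted to log2(normalized count + 1) of all 16 libraries, with Benjamini-Hochberg adjustment over 20576 genes and a threshold of 0.05. By this test 4 of the 10 members changed, and 50.1% of all genes tested did, 24.8% higher and 25.3% lower. The median log2 fold change of the members was 0.01, against -0.00254 over all genes.

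*Hspb8*, which forms a complex with *Bag3*, had 5473, 5595 and 4801 normalized counts in the sham hearts and 3677, 2751 and 1591 in the MI hearts. It fell by 1.06 on the log2 scale (standard error 0.24, 95% interval -1.57 to -0.56, adjusted p = 0.00161), the only member to pass both the test and a 2-fold change here, against 23.5% of all genes. *Hspb6*, a cardioprotective small heat shock protein related to *Cryab*, had 8540, 9202 and 10287 normalized counts after sham surgery and 8047, 4981 and 2809 after MI. The log2 fold change of *Hspb6* was -0.95 (standard error 0.27, adjusted p = 0.00784). *Hspb7*, a cardiac and skeletal muscle chaperone that binds filamin C, had 28080, 22239 and 25424 normalized counts after sham surgery and 22215, 15386 and 9310 after MI. In all 3 genes the groups did not overlap, but for *Hspb7* the highest MI heart was only just below the lowest sham heart. The log2 fold change of *Hspb7* was -0.77 (standard error 0.24, adjusted p = 0.0142). Without the first sham heart it was -0.69 with an adjusted p of 0.0546, and without the third MI heart -0.44 with an adjusted p of 0.061. Fitted to the compared groups alone, its adjusted p was 0.0691. When CT010467.1 was added to the model, *Hspb7* (-0.74, adjusted p = 0.112) and *Hspb8* (-0.86, adjusted p = 0.064) no longer passed the test.

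*Hsp90aa1* moved the other way. It had 2435, 3138 and 1783 normalized counts in the sham hearts and 3905, 3915 and 3999 in the MI hearts, which lay close together and above every sham heart. The log2 fold change was 0.72 (standard error 0.17, 95% interval 0.37 to 1.08, adjusted p = 0.00213), and with libraries scaled to their total reads it was 0.54 with an adjusted p of 0.18. With *Hspb6*, *Hspb7* and *Hspb8*, *Hsp90aa1* made 4 members whose groups did not overlap, against 59.0% of all genes. *Hspa1b* had 56.4, 93.4 and 30.9 normalized counts after sham surgery and 192, 92.2 and 97.9 after MI, and the groups overlapped by a single MI heart just under the highest sham heart. On the log2 scale *Hspa1b* was 1.12 higher after MI (standard error 0.45), which did not pass the test (adjusted p = 0.0504). It did pass with TMM factors (adjusted p = 0.0499), with DESeq2 (0.0441), without sham heart 2 (0.0179) and without MI heart 2 (0.0444).

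For the remaining members the groups overlapped. *Cryab*, second to *Hspb7* per kilobase at baseline, had 10233, 11474 and 10469 normalized counts in the sham hearts and 14331, 7168 and 6701 in the MI hearts. One MI heart was thus above and the others below all sham hearts, and the log2 fold change was -0.28 (95% interval -0.87 to 0.31, adjusted p = 0.426). Without MI heart 1, the heart above, *Cryab* passed the test (-0.63, adjusted p = 0.0471). *Hspb1* had 1603, 2370 and 1562 normalized counts after sham surgery and 3342, 1998 and 2058 after MI, with a log2 fold change of 0.40 (95% interval -0.05 to 0.85, adjusted p = 0.126). Without sham heart 2 it passed the test (0.60, adjusted p = 0.0353). *Hspa1a*, *Hsph1* and *Dnajb1* had log2 fold changes of 0.26, -0.01 and 0.03, with 95% intervals of -0.67 to 1.19, -0.49 to 0.47 and -0.59 to 0.66.

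In PKM2-/- hearts the same comparison gave lower *Hsph1*, *Hspb6*, *Hspb7* and *Hspb8* and higher *Hsp90aa1* after MI. These are 5 of the 10 members, against 56.8% of all genes tested (28.7% higher and 28.1% lower), and 3 of them (*Hsph1*, *Hspb6* and *Hspb8*) also passed a 2-fold change, against 28.8%. The median log2 fold change of the members was -0.66, against 0.01 over all genes. *Hspb6* had 8008, 8358 and 12354 normalized counts after sham surgery and 3627, 3470 and 3056 after MI. Its fold change was the largest of the 10 members, -1.48 on the log2 scale (standard error 0.27, 95% interval -2.04 to -0.91, adjusted p = 2.30e-04). *Hspb8* had 4485, 4536 and 6148 normalized counts after sham surgery and 2801, 2056 and 1777 after MI, and it fell by 1.20 on the log2 scale (standard error 0.24, adjusted p = 4.80e-04). *Hspb7* had 21448, 22985 and 26986 normalized counts after sham surgery and 16802, 12436 and 11903 after MI, a log2 fold change of -0.81 (adjusted p = 0.00963). For all 3 small heat shock genes, every MI heart was below every sham heart. With libraries scaled to their total reads, which puts the median of all genes at 0.52, *Hspb7* (-0.29, adjusted p = 0.53) and *Hspb8* (-0.69, adjusted p = 0.0772) no longer passed the test.

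For *Hsph1*, the HSP110 nucleotide exchange factor, the sham hearts were high and the MI hearts low. It had 1567, 1532 and 2098 normalized counts in the sham hearts and 557, 734 and 883 in the MI hearts, with a log2 fold change of -1.27 (standard error 0.22, 95% interval -1.74 to -0.79, adjusted p = 1.92e-04). The MI hearts lay near the baseline hearts of the same genotype, which had 691 and 713. *Hspa1a* had 121, 91.4 and 178 normalized counts after sham surgery and 52.7, 71.8 and 57.7 after MI. Although no MI heart reached a sham heart, the difference of -1.04 on the log2 scale (standard error 0.44) did not pass the test (adjusted p = 0.0534). It did pass with DESeq2 (adjusted p = 0.0368), edgeR (0.0422), only the groups compared (0.0085) or CT010467.1 in the model (0.0455), so that 6 members then passed. *Hsp90aa1* had 2461, 3205 and 3507 normalized counts after sham surgery and 3644, 4110 and 4570 after MI. Its rise of 0.44 on the log2 scale (standard error 0.17, adjusted p = 0.0364) no longer passed the test without PKM2-/- sham heart 1 (0.29, adjusted p = 0.18), MI heart 2 (0.43, adjusted p = 0.0771) or MI heart 3 (0.36, adjusted p = 0.131), or without the filter on low values (adjusted p = 0.0618). *Hspa1b* (-0.40), *Dnajb1* (-0.01), *Hspb1* (0.09) and *Cryab* (-0.52) did not pass the test, with adjusted p of 0.475, 0.984, 0.736 and 0.125. Without sham heart 1 *Cryab* passed (-0.74, adjusted p = 0.0491). In all, 6 members had groups that did not overlap, *Hspa1a* among them, against 62.3% of all genes.

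**Figure D2:**
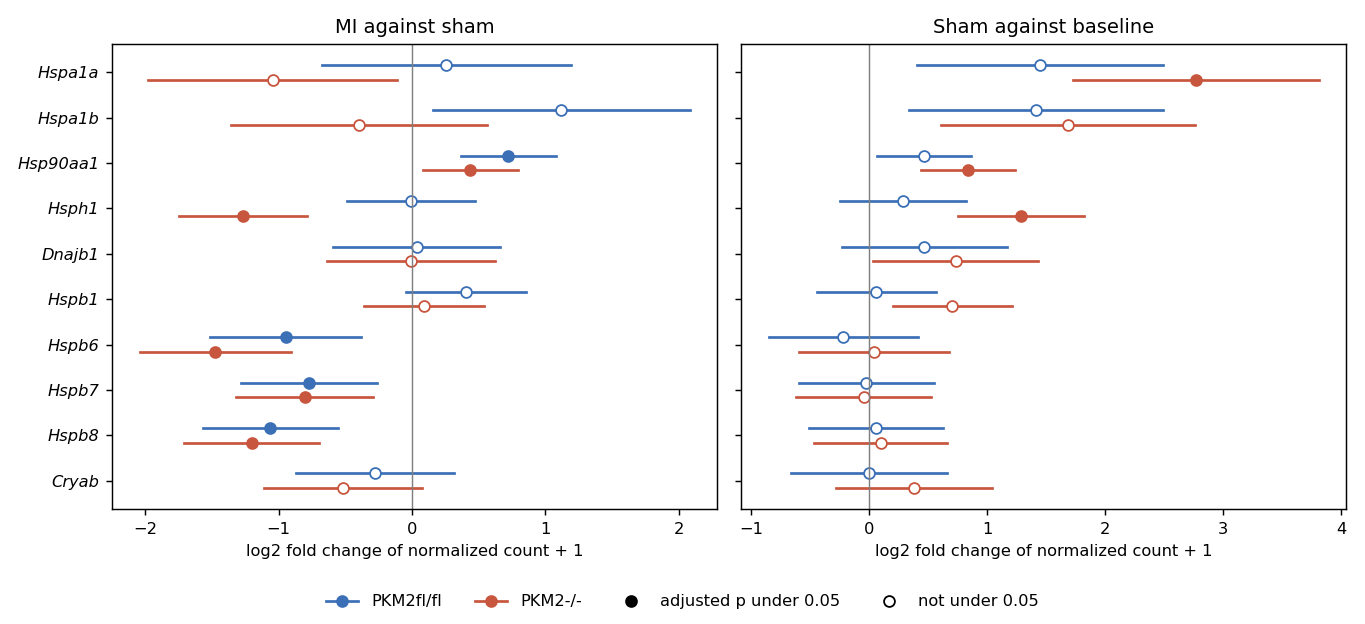
Log2 fold changes of normalized count + 1 for the 10 genes (vertical) with their 95% intervals in the comparisons of MI with sham surgery and of sham surgery with baseline, in both genotypes; filled points passed the threshold of 0.05 for the adjusted p and open points did not. Hspb6, Hspb7 and Hspb8 lie left of 0 after MI in both genotypes, and Hspa1a, Hsp90aa1 and Hsph1 lie right of 0 after sham surgery in PKM2-/- hearts.

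Whether the change with MI differed between genotypes was tested by an interaction term. By limma 0 members and 0.0% of all genes passed. At an unadjusted p under 0.05 there were 1703 genes, 2 of them members, and DESeq2 called 60 genes and edgeR 0, with 0 members in either. The members at an unadjusted p under 0.05 were *Hsph1*, whose change with MI was lower in PKM2-/- hearts by a log2 difference of -1.26 (standard error 0.32, adjusted p = 0.361), and *Hspa1b*, with -1.52 (standard error 0.64, adjusted p = 0.566). With total count scaling 0 members were at an unadjusted p under 0.05, while 3996 genes were. Without PKM2fl/fl MI heart 3 the difference for *Hsph1* was -1.43 with an adjusted p of 0.0285, in a fit where 486 of 20513 genes passed. Because both comparisons with MI use the sham hearts of their genotype, the difference contains the sham values described next.

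Markers of cardiomyocytes and of other cell types moved with MI. Of 13 cardiomyocyte markers, 12 were lower in PKM2fl/fl and 13 in PKM2-/- MI hearts, with median log2 fold changes of -1.80 and -2.19. Their summed level was 1754570 to 1896890 normalized counts in the PKM2fl/fl sham hearts and 343840 to 758129 in the MI hearts. In PKM2-/- hearts it was 1534520 to 1872970 and 344792 to 448095. All 7 macrophage and monocyte markers were higher after MI in both genotypes (medians 3.09 and 2.78), as were 6 of 7 fibroblast markers tested. The eighth fibroblast marker, *Cthrc1*, was at 0 in 14 libraries, *Myh4* of fast skeletal muscle in 11 and *Ly6g* of neutrophils in 9. The part of these shifts in the values of the heat shock genes was not tested.

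Set against the cardiomyocyte markers of the same hearts, every member was relatively higher after MI. The mean log2 change of the 13 markers was -1.71 in PKM2fl/fl hearts, and 97.0% of all genes tested had a change above that, so a value above it is a description and not particular to these genes. Relative to that mean, *Hspb8*, *Hspb6* and *Hspb7* lay 0.65, 0.76 and 0.94 log2 units higher in PKM2fl/fl hearts, and 0.89, 0.62 and 1.28 in PKM2-/- hearts. The small heat shock genes that fell thus fell by less than the mean of that list, though not by less than each of its genes, whose log2 fold changes ranged from -2.23 to -0.74 in PKM2fl/fl and from -2.68 to -1.22 in PKM2-/- hearts. *Cryab* lay 1.43 and 1.57 above the list, and *Hspb1* 2.12 and 2.18. Among the inducible genes, *Hsp90aa1* lay 2.43 and 2.53 above it, and *Hsph1* 1.70 and 0.82.

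**Figure D3:**
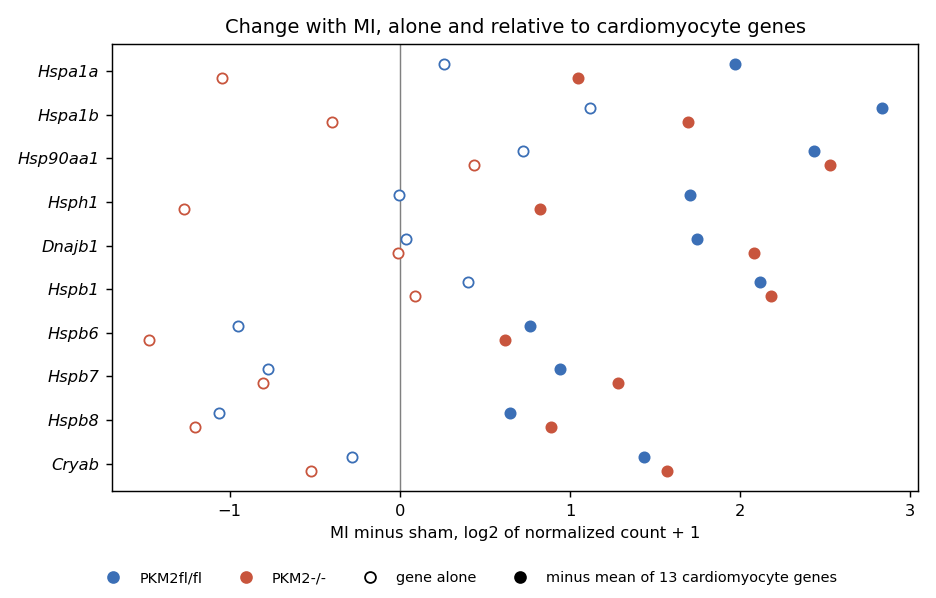
Difference between MI and sham hearts in log2 of normalized count + 1 for the 10 genes (vertical), alone and after subtraction of the mean change of the 13 cardiomyocyte markers, in both genotypes. All 10 genes lie right of 0 after the subtraction, from 0.62 for Hspb6 in PKM2-/- hearts to 2.83 for Hspa1b in PKM2fl/fl hearts.

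Sham surgery was compared with baseline to separate surgery from the infarct, with the same sham hearts as above. In PKM2-/- hearts the inducible genes *Hspa1a*, *Hsph1* and *Hsp90aa1* rose 3 days after sham surgery. These were 3 of the 10 members, against 5.14% of all genes tested (3.48% counting only higher genes), and the median log2 fold change of the members was 0.72, against 0.01 over all genes. The members were chosen with earlier results of these data known, so these shares are a description and not a test. *Hspa1a* had 14.0 and 22.0 normalized counts at baseline and 121, 91.4 and 178 after sham surgery, with a log2 fold change of 2.77 (standard error 0.49, 95% interval 1.72 to 3.81, adjusted p = 0.00575). *Hsph1* had 691 and 713 normalized counts at baseline and 1567, 1532 and 2098 after sham surgery, and it rose by 1.29 on the log2 scale (standard error 0.25, adjusted p = 0.00911). *Hsp90aa1* had 1672 and 1713 normalized counts at baseline and 2461, 3205 and 3507 after sham surgery (0.84, standard error 0.19, adjusted p = 0.0181). In all 3 genes every sham heart was above both baseline hearts, and *Hspa1a* and *Hsph1* also passed a 2-fold change, against 2.66% of all genes.

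*Hspa1b* and *Hspb1* also separated the groups without passing the test. *Hspa1b* had 30.3 and 44.0 normalized counts at baseline and 77.2, 95.3 and 231 after sham surgery (1.68, adjusted p = 0.0687). *Hspb1* had 1186 and 1587 at baseline and 2048, 1922 and 2829 after sham surgery (0.70, adjusted p = 0.106). In all, 5 members had every sham heart above both baseline hearts, against 18.4% of all genes tested. The calls rest on few baseline hearts, and when 1 is left out the other is assumed to vary like the hearts of the other groups. Without PKM2-/- baseline heart 1, 0 members passed the test, and *Hspa1a* then had 2.46 with an adjusted p of 0.0572. Without baseline heart 2, 1 member passed, and without sham heart 3, 2 members did. With sham heart 3 left out 979 genes passed in all, against 1058 with every heart. *Hsp90aa1* also lost its call without sham heart 2 (0.80, adjusted p = 0.0554), where 656 genes passed. With libraries scaled to their total reads it lost its call as well (1.05, adjusted p = 0.0803), while *Hspa1b* passed (1.88, adjusted p = 0.00683). *Hspa1b* also passed with DESeq2 (1.88, adjusted p = 0.0131), and *Dnajb1* passed without sham heart 2 (1.11, adjusted p = 0.0466).

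Other genes moved with sham surgery in the PKM2-/- hearts. All 4 neutrophil markers tested were higher, with summed levels of 58.6 to 69.9 normalized counts at baseline and 606 to 917 after sham surgery, and *Ly6g*, a defining marker, did not pass the filter on low values. Of 7 fibroblast markers tested, 3 were higher, and 1 marker each was higher of 2 adipocyte, 4 atrial, 7 macrophage and 6 endothelial markers, while 1 of 5 smooth muscle markers was lower. Of 8 immediate early genes, which respond to handling and stress within minutes, 4 were higher, while the 13 cardiomyocyte markers had a median log2 fold change of -0.06 and did not pass the test. CT010467.1 took up 8.25 and 7.63% of reads at baseline and 4.14 to 15% after sham surgery. The part of these in the rise of the heat shock genes was not tested.

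In PKM2fl/fl hearts 0 members passed the test after sham surgery, against 0.19% of all genes tested (39 genes). At an unadjusted p under 0.05 there were 1813 genes, 3 of them members (*Hspa1a*, *Hspa1b* and *Hsp90aa1*). DESeq2 called 349 genes, with 1 of these members (*Hspa1a*), and edgeR called 26 genes and 0 members. The groups did not overlap for these 3 members, against 32.5% of all genes. *Hspa1a* had 22.0 and 18.6 normalized counts at baseline and 52.3, 137 and 25.5 after sham surgery (1.45, adjusted p = 0.304), and *Hspa1b* had 25.9 and 15.3 at baseline and 56.4, 93.4 and 30.9 after sham surgery (1.41, adjusted p = 0.352). *Hsp90aa1* had 1729 and 1734 at baseline and 2435, 3138 and 1783 after sham surgery (0.46, adjusted p = 0.449). The third sham heart was the lowest for each and close to baseline, and without it *Hspa1a* passed the test (2.01, adjusted p = 0.0283). In that fit 282 of 20596 genes passed, against 39 with all hearts. Neutrophil markers did not pass the test in this genotype, with summed levels of 26.7 to 75 at baseline and 105 to 948 after sham surgery.

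Whether the change with sham surgery differed between genotypes was also tested, in a comparison added after the values were seen. By limma 0 members and 0.0% of all genes passed, with 1294 genes at an unadjusted p under 0.05, and DESeq2 called 24 genes and edgeR 0, with 0 members in either. The only member at an unadjusted p under 0.05 was *Hsph1*, whose change was higher in PKM2-/- hearts by a log2 difference of 1.00 (standard error 0.35, 95% interval 0.25 to 1.76, adjusted p = 0.632). A rise in one genotype and not in the other is therefore not shown to be a difference between genotypes.

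PKM2-/- and PKM2fl/fl hearts were compared within each treatment to ask what the loss of PKM2 changes. At baseline 0 members passed limma's test, and 0.00972% of all genes did (2 genes). At an unadjusted p under 0.05 there were 748 genes and also 0 members, and DESeq2 called 11 genes and edgeR 1, with 0 members in either. With 2 hearts against 2, the groups did not overlap for 5 members, of which *Hsp90aa1*, *Hspb1*, *Hspb6* and *Hspb8* were lower in PKM2-/- hearts, against 34.9% of all genes. *Hspb6* had 10261 and 11475 normalized counts in PKM2fl/fl and 9121 and 9174 in PKM2-/- hearts, and *Hspb8* had 5470 and 4711 against 4675 and 4688. These gaps were smaller than the spread of the PKM2fl/fl pair. The fifth, *Hspa1b*, was higher, with 30.3 and 44.0 against 25.9 and 15.3.

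After sham surgery 0 members passed limma's test, against 0.00972% of all genes (2 genes). At an unadjusted p under 0.05 there were 2047 genes, 3 of them members, and with total count scaling 1631 genes and 0 members. DESeq2 called 265 genes, 1 of them a member (*Hsph1*), and edgeR called 2 genes and 0 members. *Hsph1* had 845, 1251 and 698 normalized counts in PKM2fl/fl and 1567, 1532 and 2098 in PKM2-/- hearts, with every PKM2-/- heart above every PKM2fl/fl heart. The log2 difference was 0.92 (standard error 0.22, 95% interval 0.45 to 1.40, adjusted p = 0.136). It was the only member whose groups did not overlap, against 16.5% of all genes. *Hspa1a* and *Hspa1b* were 1.12 and 1.11 log2 units higher in PKM2-/- hearts (adjusted p = 0.394 and 0.421), with overlapping values. As the 2 copies may share reads, their sum was also taken, and it was 56.4 to 230 normalized counts in PKM2fl/fl and 187 to 409 in PKM2-/- sham hearts, which overlapped as well.

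After MI 0 members passed limma's test, against 0.967% of all genes (199 genes). At an unadjusted p under 0.05 there were 3492 genes and 0 members, and DESeq2 called 1029 genes and edgeR 138, with 0 members in either. *Dnajb1*, the J-domain partner of HSP70, was the only member whose groups did not overlap, with 334, 270 and 316 normalized counts in PKM2fl/fl and 395, 383 and 397 in PKM2-/- hearts, against 18.9% of all genes. *Hspb6* had 8047, 4981 and 2809 in PKM2fl/fl MI hearts, a wide spread that enclosed the values of 3627, 3470 and 3056 in PKM2-/- MI hearts. Without PKM2fl/fl MI heart 3, 1 member passed the test, *Hspb6*, with a log2 difference of -0.91 and an adjusted p of 0.00795. In that fit 2279 of 20513 genes passed, against 199 with all hearts.

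Members varied together within groups, mostly along the division into inducible and small heat shock genes, with *Hspb1* correlated with both. After subtraction of each group's mean, Pearson correlations over the 16 libraries had a median of 0.724 among the 5 inducible genes (0.417 to 0.898), 0.809 among the 5 small heat shock genes (0.516 to 0.896) and 0.294 between the sets (-0.126 to 0.725). The libraries are shared by all pairs, *Hspa1a* and *Hspa1b* may share reads, and the values are a description. The share of all gene pairs with such correlations was not computed. The highest were those of *Hspa1b* with *Hsph1* (0.898), *Hspb7* with *Hspb8* (0.896) and *Hspb6* with *Hspb7* (0.893). *Hspb1* had correlations of 0.387 to 0.725 with the inducible genes and of 0.516 to 0.838 with the other small heat shock genes. Within the small heat shock genes, *Hspb6*, *Hspb7* and *Hspb8* were also correlated with the mean of the cardiomyocyte markers (0.818, 0.872 and 0.869). *Cryab* (0.574) and *Hspb1* (0.394) were less so, and the inducible genes ranged from -0.0657 to 0.279. Groups with a wide spread weigh most in these values. The SD of the marker mean was 0.71 in PKM2fl/fl MI hearts, 0.24 in PKM2-/- MI hearts and 0.0121 to 0.116 in the other groups. With CT010467.1 the members' correlations were -0.336 to 0.178.

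**Figure D4:**
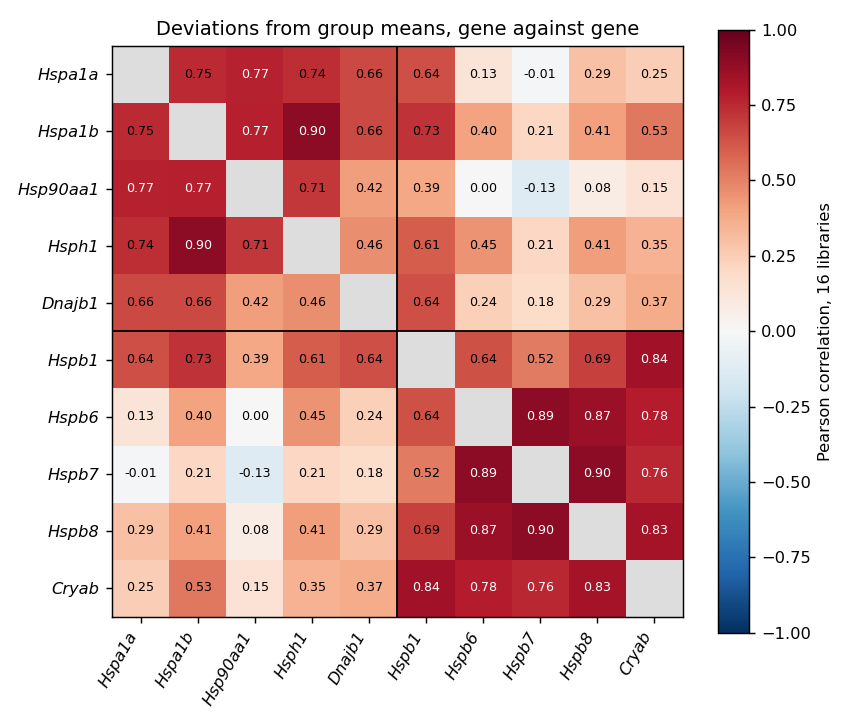
Pearson correlations over the 16 libraries between the 10 genes (both axes), from log2 of normalized count + 1 after subtraction of the mean of each group. Values are high within the inducible genes and within the small heat shock genes, Hspb1 is also correlated with the inducible genes, and the lowest value is that of Hsp90aa1 with Hspb7.

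Outside the 10 members, the genes whose deviations were most like those of *Hspa1a* over the 16 libraries were *Gm20481* (0.983), the antisense gene within it, then *Commd1b* (0.939), *Hexa* (0.896), *Gad1-ps* (0.893) and *Mfap2* (0.886). *Gm20481* had means of 16.7, 52.2 and 54.5 normalized counts in PKM2fl/fl baseline, sham and MI hearts and 12.6, 92.8 and 43.7 in the PKM2-/- groups. Those most like *Hspb1* were *Trmt112* (0.908), *Sod3* (0.903), *B3gnt9* (0.896), *Cfap410* (0.891) and *Galnt2l* (0.878). Those most like *Hspb7* were *Smpd1* (0.975), *Ntsr2* (0.967), *Csdc2* (0.964), *Gm16861* (0.963) and *Wipf3* (0.957). Those most like *Cryab* were *Ssh1* (0.938), *Nmt1* (0.922), *Psmd8* (0.917), *Trappc1* (0.912) and *Gm37905* (0.912).

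Of the other genes of the chaperone network, more were lower than higher after MI. Of 72 genes listed by role, 70 passed the filter. In PKM2fl/fl hearts 6 were higher, 32 lower and 32 did not pass the test, with a median log2 fold change of -0.32, where 24.8% of all genes tested were higher and 25.3% lower. In PKM2-/- hearts 9 were higher and 37 lower, with a median of -0.37, where 28.7% of all genes were higher and 28.1% lower. In both genotypes all 9 genes on the list of mitochondrial chaperones, not all of which fold proteins, were lower (medians -0.76 and -0.81). Among them were *Hspd1* (-0.87 and -0.89) and *Hspa9* (-1.14 and -1.14). Of 10 J-domain co-chaperones, 6 and 7 were lower, with *Dnajb2* at -1.27 and -1.57 and *Dnajb5* at -1.20 and -1.34. Of 16 HSP90 genes and co-chaperones, 7 and 9 were lower. Among these were *Fkbp4*, a steroid receptor co-chaperone (-1.61 and -1.89), and *Unc45b*, which folds muscle myosin (-1.39 and -1.97).

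*Bag3*, the partner of *Hspb8*, fell with it. *Bag3* had a mean of 5277 ± 385 normalized counts in PKM2fl/fl sham hearts and 2749 ± 1105 in MI hearts (SD, n = 3 each), and it fell by 1.03 on the log2 scale (adjusted p = 0.00125 from limma). In PKM2-/- hearts it had 5917 ± 519 and 2184 ± 323 (SD, n = 3 each) and fell by 1.44 (adjusted p = 5.44e-05 from limma). *Hsf1*, which encodes the factor that binds heat shock elements, had a log2 fold change of -0.30 in PKM2fl/fl (adjusted p = 0.0521) and -0.51 in PKM2-/- hearts (adjusted p = 0.00223). The constitutive HSP70 and HSP90 genes *Hspa8* and *Hsp90ab1* had -0.18 and -0.28 in PKM2fl/fl hearts, which did not pass the test (adjusted p = 0.523 and 0.128). In PKM2-/- hearts *Hsp90ab1* fell by 0.60 on the log2 scale (adjusted p = 0.00292), and *Hspa8*, at -0.36, did not pass (adjusted p = 0.192). Of the other genes listed as small heat shock genes, *Hspb3*, found in muscle, was lower (-1.23 and -1.03). *Hspb2*, whose exons overlap those of *Cryab*, had -0.64 and -0.41 (adjusted p = 0.0507 and 0.187 from limma). *Hspb11* was higher (0.49 and 0.60), but it was listed for its symbol and does not encode a small heat shock protein.

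A smaller part of the network was higher after MI. *Serpinh1*, the collagen chaperone HSP47 of the endoplasmic reticulum, rose from 3396 ± 932 normalized counts in PKM2fl/fl sham hearts to 11392 ± 906 in MI hearts (SD, n = 3 each), or by 1.78 on the log2 scale, and by 1.56 in PKM2-/- hearts. Of 9 subunits of the cytosolic chaperonin TRiC, which folds actin and tubulin, 2 were higher in PKM2fl/fl hearts (*Cct2*, 0.32, and *Cct6a*, 0.39) and 5 in PKM2-/- hearts. After sham surgery 0 of the 70 genes passed the test in PKM2fl/fl hearts. Of the same 70, 2 were higher in PKM2-/- hearts, where 3.48% of all genes were, namely *Dnaja1*, a J-domain partner of HSP70 (1.02, adjusted p = 0.008), and *Fkbp5*, a glucocorticoid-induced co-chaperone of HSP90 (2.17, adjusted p = 0.0165), and both were named after their values were seen.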

How the data were processed

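Left ventricles of 16 mice in 6 groups of genotype and treatment were analysed. The authors used PRINSEQ for trimming, HISAT2 for alignment to mm10 and featureCounts for counts per gene, and the strand and multi-mapping settings are not given in the sources used here. The deposited values are a normalized signal per gene and library, each count over the DESeq2 size factor of its library. The deposited table also holds the authors' log2 fold changes, scores and p-values between baseline groups, which were not used. 0 value columns were left without a sample.

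Each library's values were whole multiples of 1 step, so reads were recovered for use in alternatives (100.0% of values whole within 0.02). The main test was limma 3.58.1 (R 4.3.3) with an intensity trend, on log2(value + 1) of all 16 libraries in 6 groups, for genes with a mean of at least 10, with Benjamini-Hochberg adjustment over all genes and calls at an adjusted p under 0.05. Calls that also reach a 2-fold change were counted beside them. Fold changes are on that scale and understate those of low genes. The genotype-by-sham interaction was added after the data were seen.

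The members, lists and tests were chosen with earlier results of these data known. Named are the 10 members, at most 4 called genes per pathway list with the smallest p in PKM2fl/fl hearts, *Hsf1*, *Bag3*, *Hspa8*, *Hsp90ab1*, *Hspb2* and *Pkm*, and the 5 genes most correlated with each of *Hspa1a*, *Hspb1*, *Hspb7* and *Cryab*. Other genes named (*Dnaja1*, *Fkbp5*, and markers at 0) were chosen after their values were seen. Same-numbered hearts of different groups had correlated deviations of -0.196 to 0.126 (median -0.0266 over 36 pairs), so the numbers do not pair hearts. The alternatives were edgeR 4.0.16 TMM factors, total count scaling, DESeq2 1.42.0 and edgeR on recovered reads, no filter on low values, a pseudocount of 0.1, only the groups compared, a replicate block, *CT010467.1* as a covariate, and each library left out in turn. Promoters and positions are from RefSeq (GRCm38.p6), transcripts from GENCODE compared with BLAST 2.17.0.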

Additional observations from a re-analysis of the deposited data

How the results depend on the processing

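Counts are members passing the test. After MI, PKM2fl/fl hearts had 4, but 2 with *CT010467.1* as a covariate, where the genes called fell from 10299 to 6014 of 20576. They had 3 to 6 when single libraries were left out, with 8890 to 10205 genes called. PKM2-/- hearts had 5, but 3 with total count scaling, where the genes called fell from 11679 to 9191. They had 6 with DESeq2, edgeR, the covariate or only the groups compared (11162 to 12058 genes called). Without single libraries they had 4 to 6 (10471 to 11023 genes called). DESeq2 gave 1 in place of 0 for genotype after sham surgery (*Hsph1*) and for sham surgery in PKM2fl/fl hearts (*Hspa1a*), where leaving out libraries gave 0 to 1. For genotype after MI and the genotype-by-MI interaction, leaving out libraries gave 0 to 1, the 1 beside 2279 and 486 genes called. For sham surgery in PKM2-/- hearts it gave 0 to 3 in place of 3. DESeq2 gave 4 for sham surgery in PKM2-/- hearts, with *Hspa1b* added, among 1393 genes called. In each case the cause was not tested. The replicate block changed no count (4, 5 and 3 as before, 0 elsewhere), and no source says that the numbers pair the hearts. 

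Direction turned only for differences that did not pass the test. The values below are for the 36 differences named here, of 90 in all. Of the 54 others, 34 changed sign under some alternative and 0 passed the test under any. *Dnajb1* after MI in PKM2-/- hearts was 0.012 with TMM, 0.50 with total count scaling and 0.0026 with the covariate, and in PKM2fl/fl hearts -0.14 with total count scaling and -0.15 with the covariate. *Hspa1b* in PKM2-/- hearts was 0.11 with total count scaling, and *Hspa1a* in PKM2fl/fl hearts was -0.040 with DESeq2 and -0.020 with edgeR. Without single libraries, *Dnajb1* ranged from -0.39 to 0.36 in PKM2-/- and from -0.19 to 0.16 in PKM2fl/fl hearts, *Hsph1* in PKM2fl/fl hearts from -0.19 to 0.23, *Hspa1a* in PKM2fl/fl hearts from -0.31 to 0.88, *Hspa1b* in PKM2-/- hearts from -0.71 to 0.077 and *Hspb1* in PKM2-/- hearts from -0.017 to 0.26. Of the values of the named differences under alternatives, 489 kept their direction and side of the threshold, 20 newly passed it, 20 no longer did and 18 changed sign. Total count scaling put the median of all genes as far from 0 as 0.68, for the genotype-by-MI interaction.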
